A study of Mus musculus domesticus with 18 samples.

Results

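Pebp1 and the members of the Raf-ERK signalling cascade that were grouped with it were measured in the livers of 18 wild-trapped male house mice (Mus musculus domesticus). Pebp1, Braf, Map2k1, Map2k2, Mapk3, Dusp6 and Spry4 were taken through every Affymetrix probe set that the platform annotation assigned to that gene alone. Pebp1 was chosen by its lower level at high altitude in these same arrays, and the other members were chosen with results of these arrays known. The altitude values of all members are therefore a description with an error. Calls named for the members by altitude are no test of them and support nothing further. In all, 19 probe sets of 6 genes were found, among 18193 genes with at least 1 probe set of their own. Mapk3 was not analysed here. One further probe set listed Pebp1 together with other genes and was left out.

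The high altitude group held 9 mice from La Paz, Bolivia (3600 m), and the low altitude group 9 mice from Lima, Peru (100 m). Each group came from 3 trapping locations with 3 mice each, lettered A, B and C separately within each altitude, so that high A and low A are different places. Each mouse gave 1 array from liver RNA, and the labels used here state no ages. A strain label reads C57BL/6J although titles and sources describe wild mice, and the latter were followed. Altitude coincided with city and mouse population, so these cannot be told apart.

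Pebp1 encodes a small cytosolic protein, also known as Raf kinase inhibitor protein, which binds Raf and keeps it from phosphorylating its substrate. In the cascade, growth factor receptors load Ras with GTP, Ras recruits Raf kinases such as Braf, Raf phosphorylates the MEK kinases encoded by Map2k1 and Map2k2, and MEK activates ERK. Active ERK induces its own brakes, among them the phosphatase gene Dusp6 and the Sprouty gene Spry4. In the liver the pathway is known for its part in hepatocyte growth and regeneration. The arrays measure transcripts only, not the phosphorylation through which the cascade signals.

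The values are log2 levels from robust multi-array averaging (RMA), which can be compared between mice for 1 probe set but not between probe sets. Array medians lay between 5.24 and 5.36, and correlations between arrays ran from 0.976 to 0.994. All 8 hepatocyte markers, among them Alb, Ttr and Apoa1 were above the median probe set level of 5.31. The mean level of these 8 markers lay between 13.46 and 13.74 at high and between 13.54 and 13.82 at low altitude. RNA integrity, read from the Actb controls as the 3 prime level less the 5 prime level, was 1.40 ± 0.32 in high altitude mice and 1.21 ± 0.17 in low altitude mice (SD, n = 9 each). Of markers of other cells, only Jchain and Ighm of the B and plasma cell list differed between altitudes at an adjusted p under 0.05 (limma).

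Pebp1 was lower in every high altitude mouse than in any low altitude mouse, by both of its probe sets. The brighter one, 1438649_x_at, read 12.20, 12.03 and 12.35 in the mice of high A. It read 12.38, 12.13 and 12.08 in high B, and 12.26, 12.20 and 12.42 in high C. The high altitude mice thus lay within a narrow band, and no high location stood apart. In Lima it read 12.78, 13.41 and 13.34 in low A, 12.74, 12.99 and 12.76 in low B, and 13.00, 12.78 and 12.84 in low C. Among the low altitude mice, a pair from low A were higher than the other 7. The highest high altitude mouse, from high C, and the lowest low altitude mouse, from low B, were 0.33 apart. The means were 12.23 ± 0.13 for high and 12.96 ± 0.25 for low altitude (SD, n = 9 each). The difference was -0.73 ± 0.095 (SE), with a 95% interval from -0.93 to -0.54, which is a 1.66-fold lower level. In whole liver, fewer cells of a type and less RNA per cell cannot be told apart.

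The second Pebp1 probe set, 1415950_a_at, gave the same picture with a larger difference. Its values were 11.67, 11.30 and 11.76 in high A, 11.71, 11.38 and 11.34 in high B, and 11.57, 11.84 and 11.91 in high C. At low altitude they were 12.56, 13.07 and 13.09 in low A, 12.29, 12.53 and 12.39 in low B, and 12.37, 12.57 and 12.47 in low C. The same mice of high C and low B marked the edges of the groups, 0.38 apart. The means were 11.61 ± 0.22 for high and 12.60 ± 0.29 for low altitude (SD, n = 9 each). The difference was -0.99 ± 0.12 (SE), with a 95% interval from -1.23 to -0.74, a 1.98-fold lower level. Both Pebp1 probe sets were among the 0.127% of all 45037 probe sets called lower at high altitude by limma at an adjusted p under 0.05, and among the 0.04% whose 9 high altitude mice all lay below the 9 low altitude mice. This contrast chose the gene, so nothing is read from these shares. With 1 mean per location, 3 against 3, no probe set was called by limma, those of Pebp1 included, with 3634 at an unadjusted p under 0.05.

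**Figure D1:**
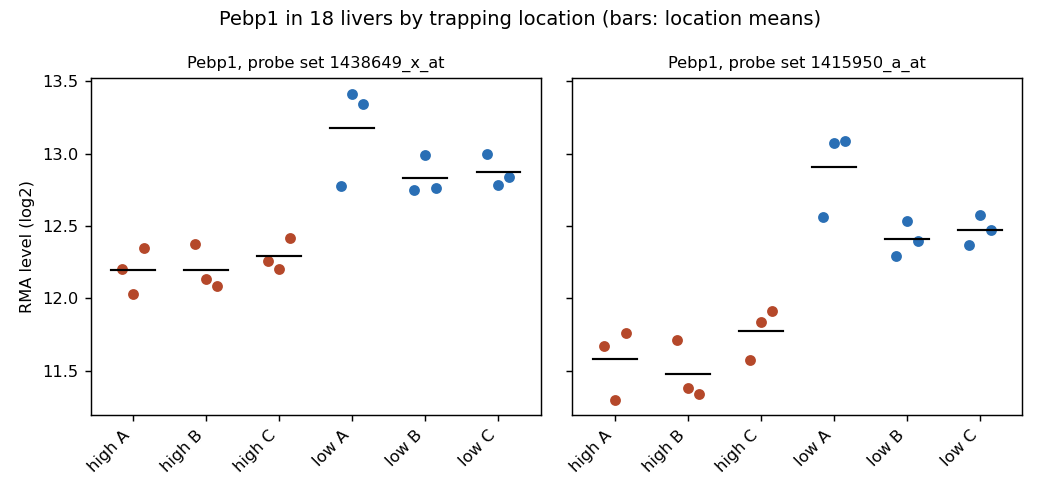
RMA level (log2, y axis) of both Pebp1 probe sets in each of the 18 livers, by trapping location (x axis), with 1 point per mouse and a bar at each location mean. In both panels the 9 high altitude mice lie below the 9 low altitude mice, and 2 mice of low A lie above all others.

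The order of the locations was nearly the same by both probe sets. By the brighter one, the means were 12.19 in high A, 12.20 in high B, 12.29 in high C, 12.83 in low B, 12.87 in low C and 13.18 in low A. By the other, high B at 11.48 and high A at 11.58 exchanged places, followed by high C at 11.77, low B at 12.41, low C at 12.47 and low A at 12.91. Neighbours within an altitude were mostly closer than their error: low C minus low B was 0.04 ± 0.15 and 0.07 ± 0.16 (SE) by the 2 probe sets, and high B minus high A was 0.00 ± 0.15 and -0.10 ± 0.16. Low A was farther from both its neighbours: low B minus low A was -0.34 ± 0.15 and -0.50 ± 0.16 (SE), and low C minus low A was -0.31 ± 0.15 and -0.44 ± 0.16. By the second probe set alone, high C also exceeded high B by 0.30 ± 0.16 and high A by 0.20 ± 0.16 (SE).

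Differences between locations of 1 altitude were not the contrast that chose the gene. Spread between locations enters the error of that contrast, so the choice can favour genes with little of it. The locations were compared with limma's moderated F test over all probe sets. At low altitude the adjusted p of Pebp1 was 0.829 for 1438649_x_at and 0.618 for 1415950_a_at, with unadjusted p of 0.078 and 0.014. At high altitude the adjusted p was 0.989 and 0.823. No difference in Pebp1 between locations of 1 altitude therefore passed the test, the higher values of low A included. The test misses most differences of this size. On simulated arrays it recovered 19.4% of changes of 0.5 log2 in 1 low location and 23.9% of those in 1 high location. A difference between locations is thus not excluded.

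Whether the Pebp1 probe sets agree was asked separately within each altitude, where the altitude difference cannot produce a correlation. Among the 9 high altitude mice Pearson's r was 0.85 (exact permutation p = 0.00594, adjusted p = 0.0119 over the 2 altitudes). Spearman's rho was 0.80 (exact permutation p = 0.0138, adjusted p = 0.0277), and r was 0.81 without the 2 mice farthest from the median. Among the 9 low altitude mice r was 0.88 (exact permutation p = 0.0124, adjusted p = 0.0124) and rho was 0.60 (exact permutation p = 0.0968, adjusted p = 0.0968). Without the 2 farthest mice, both from low A, r at low altitude was 0.06, so that the relation there rests on them. With each location's mean removed and values permuted within locations, r was 0.86 at high altitude (exact permutation p = 0.028, adjusted p = 0.0556) and 0.81 at low altitude (exact permutation p = 0.139, adjusted p = 0.139). Neither passed the threshold after adjustment.

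**Figure D2:**
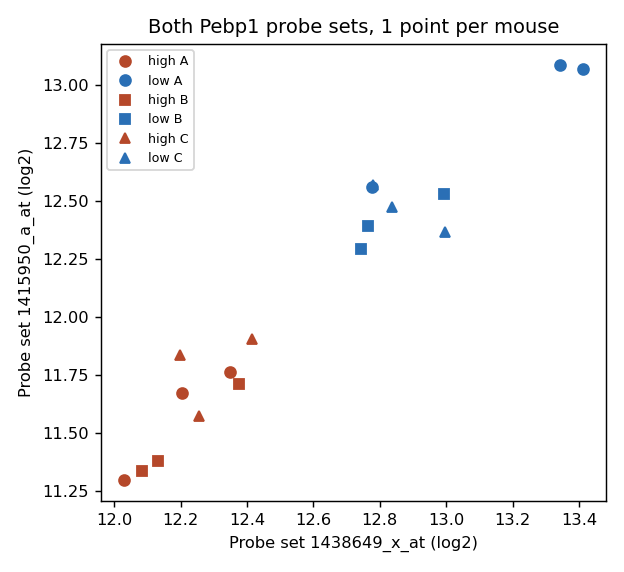
Level of Pebp1 by probe set 1438649_x_at (x axis, log2) against probe set 1415950_a_at (y axis, log2), with 1 point per mouse, colour for altitude and symbol for location. The high altitude mice form a band at the lower left with r of 0.85, and the upper right corner holds 2 mice of low A.

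The gap between the Pebp1 probe sets was itself wider at high altitude. The brighter one exceeded the other by 0.62 ± 0.13 in high and by 0.37 ± 0.14 in low altitude mice (SD, n = 9 each), with ranges from 0.36 to 0.75 and from 0.21 to 0.63. The ranges overlapped. The 2 probe sets thus gave altitude differences 0.25 apart on the log2 scale. By Affymetrix naming, an _x_at probe set may share probes with other sequences and an _a_at probe set reads several transcripts of 1 gene. Pbp2, a close relative of Pebp1 best known from the testis, was below the median probe set level with 4.61 ± 0.17 in high and 4.77 ± 0.21 in low altitude mice (SD, n = 9 each), and did not pass the altitude test (limma, adjusted p = 0.57). Probe sequences were not examined, and the cause of the wider gap was not tested.

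Braf, the Raf kinase among the members, had 9 probe sets, 4 of them above the median probe set level. Its brightest, 1435480_at, had a lowest, median and highest level of 6.96, 7.04 and 7.47 at high altitude and of 6.95, 7.06 and 7.41 at low altitude. These ranges nearly coincide, and the difference was -0.03 ± 0.09 (SE, 95% interval -0.21 to 0.15). Over all 9 Braf probe sets the differences ran from -0.18 to 0.08. The lowest belonged to 1447941_x_at, a dim probe set on which no high altitude mouse reached the low altitude mean, at 4.96 ± 0.14 against 5.15 ± 0.17 (SD, n = 9 each). Its 95% interval ran from -0.34 to -0.03, and the groups overlapped.

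Map2k1, which encodes MEK1, had 1 probe set. Its lowest, median and highest levels were 8.92, 9.18 and 9.27 at high altitude and 8.87, 9.25 and 9.37 at low altitude. The groups overlapped almost fully, with a difference of -0.07 ± 0.08 (SE, 95% interval -0.24 to 0.10). Map2k2, which encodes MEK2, ran from 9.20 over a median of 9.57 to 9.78 at high altitude and from 9.11 over 9.66 to 9.83 at low altitude by its brighter probe set. The difference was -0.08 ± 0.10 (SE, 95% interval -0.29 to 0.13), and its second probe set gave -0.05 ± 0.06 (SE).

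Of the ERK-induced members, Dusp6, the ERK phosphatase gene, had the widest spread between mice. It read 8.92, 7.90 and 7.61 in high A, 8.57, 7.61 and 7.98 in high B, and 9.31, 9.41 and 8.31 in high C. At low altitude it read 8.52, 7.55 and 9.19 in low A, 9.81, 8.40 and 9.44 in low B, and 9.08, 10.32 and 8.95 in low C. Mice of 1 location thus differed by more than 1 log2 unit in all 3 low locations and in high A and high C. The means were 8.40 ± 0.69 for high and 9.03 ± 0.82 for low altitude (SD, n = 9 each). The difference was -0.63 ± 0.32 (SE), with a 95% interval from -1.29 to 0.04, and 7 of 9 high altitude mice were under the mean of the low altitude group. By location, high C averaged 9.01, close to the low altitude mean, and low A 8.42, close to the high altitude mean.

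Spry4, a Sprouty inhibitor of receptor signalling, was above the median probe set level on 1 of its 4 probe sets. There its lowest, median and highest levels were 6.01, 6.17 and 6.54 at high altitude and 5.78, 6.10 and 6.39 at low altitude. The difference was 0.13 ± 0.09 (SE, 95% interval -0.06 to 0.32), with 7 of 9 high altitude mice above the mean of the other group and wide overlap. Its dim probe sets gave differences of -0.09, 0.03 and -0.01.

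**Figure D3:**
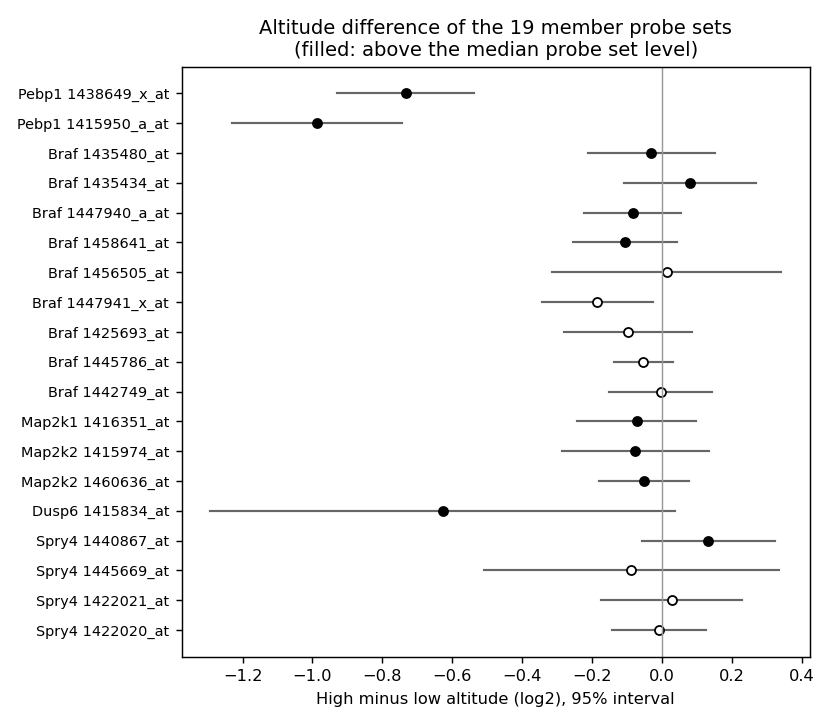
Difference of high minus low altitude (x axis, log2) for the 19 member probe sets (y axis), with 95% intervals from limma; filled points are probe sets above the median probe set level. The Pebp1 probe sets lie at -0.73 and -0.99 with intervals below 0, as has the dim Braf probe set 1447941_x_at at -0.18, while the wide interval of Dusp6, from -1.29 to 0.04, overlaps theirs.

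Taking the members other than Pebp1 together, 13 of 17 probe sets had a negative difference, against 22608 of all 45037 probe sets. The count was 12 of 17 when arrays were quantile normalized again. Of the 17, 9 belonged to Braf alone and are not independent, and only 9 were above the median probe set level. None of the 17 was called by altitude and none had groups that did not overlap, against 0.298% of all probe sets called and 0.0822% not overlapping. Between locations, 0 of the 19 member probe sets passed limma's F test at high altitude, where 0.167% of all probe sets did, and 0 at low altitude, where 0.0622% did. At an unadjusted p under 0.05 there were 0 of 19 at high altitude, where 8.39% of all probe sets had such a p, and 1, the Pebp1 probe set 1415950_a_at, at low altitude, where 6.25% had. For Dusp6 the adjusted p was 0.745 between high and 0.857 between low locations.

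**Figure D4:**
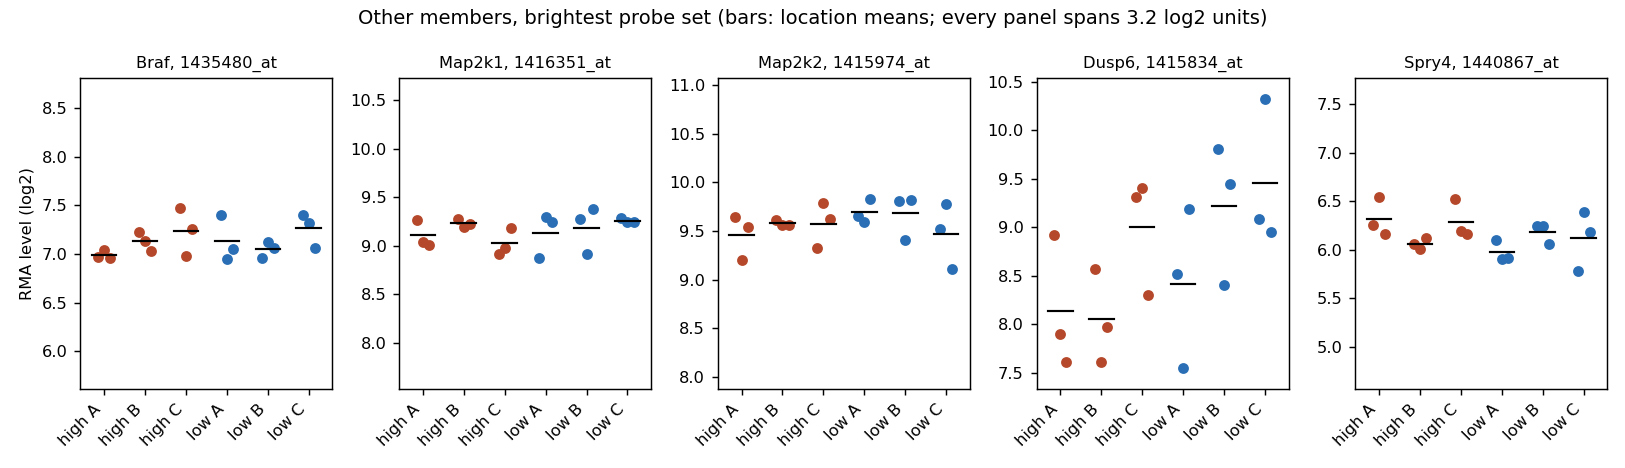
RMA level (log2, y axes) of the brightest probe set of Braf, Map2k1, Map2k2, Dusp6 and Spry4 in each liver by trapping location (x axes), red for high and blue for low altitude, with a bar at each location mean; each panel is centred on its own gene and all span the same number of log2 units. Dusp6 spreads from 7.55 to 10.32, while the other genes keep within a narrow band in all 6 locations.

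It was also asked whether mice with more Pebp1 transcript had more or less of the other members' transcripts. Within each altitude the brighter Pebp1 probe set was correlated with the brightest probe set of 5 members, 10 relations in all, and none passed. Those farthest from 0 were both at low altitude. Spry4 had r of -0.63 (exact permutation p = 0.0733, adjusted p = 0.438) and rho of -0.53 (exact permutation p = 0.148, adjusted p = 0.738), with r of -0.45 without the 2 farthest mice. Dusp6 had r of -0.61 (exact permutation p = 0.0876, adjusted p = 0.438) and rho of -0.57 (exact permutation p = 0.121, adjusted p = 0.738), with r of -0.54 without the 2 farthest mice. At high altitude the same relations gave r of -0.31 for Spry4 and 0.18 for Dusp6, with exact permutation p of 0.412 and 0.635 (adjusted p = 0.686 and 0.907). For Braf, Map2k1 and Map2k2 r lay between -0.35 and 0.39 at both altitudes, with adjusted p from 0.686 to 0.983 by exact permutation.

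The same question for the other members with several bright probe sets was added after the data were seen. The pair of Map2k2 had r of 0.31 at high and -0.09 at low altitude (exact permutation p = 0.423 and 0.818). Their rho was 0.08 and -0.48 (exact permutation p = 0.843 and 0.194). Among the 4 brighter Braf probe sets, 12 values of r over pairs and altitudes ran from -0.23 to 0.69 with a median of 0.40, and rho from -0.23 to 0.77. None of these 14 relations passed after adjustment, and the smallest adjusted p for Braf was 0.24 by exact permutation. A difference between genes in this agreement was not tested.

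The genes whose pattern over mice was most like that of Pebp1 were looked for among 12221 other genes above the median level, with each altitude's mean removed so that the altitude difference had no part. Swap70, which encodes a guanine nucleotide exchange factor, came first with r of 0.83 over 18 mice. Synj2, an inositol phosphatase gene, had 0.76, Igfals, whose product carries insulin-like growth factors in blood, 0.75, Echdc2 0.74 and Ttc32 0.74. Of these, Swap70, Synj2 and Igfals were higher at high altitude, by 0.29, 0.23 and 0.61, and Echdc2 and Ttc32 lower, at -0.32 and -0.15. Of the 5, 3 thus moved against Pebp1 between altitudes while varying with it between mice. The most opposite patterns were those of the lysosomal protease gene Ctsl at -0.78, Ywhaz at -0.78 and Frmd6 at -0.74. Frmd6 was opposite among the low altitude mice only, with r of -0.90 against 0.16 among the high altitude mice. All 5 similar genes had a higher r at low than at high altitude. Igfals had 0.84 against 0.48 and Synj2 0.83 against 0.54. The part of the low A mice with the most Pebp1 in these values was not tested. These values are the extremes of many genes and are given without a test.

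Ywhaz encodes a 14-3-3 protein, a family that binds phosphorylated Raf. Its r with Pebp1 was -0.93 among the low and 0.10 among the high altitude mice, and the difference between these values was not tested. Its brightest probe set averaged 9.22 ± 1.58 in low A against 11.19 ± 0.37 in low B and 11.21 ± 0.19 in low C (SD, n = 3 each). In the high locations the means lay between 11.05 and 11.28. The mice of low A thus differed widely among themselves, with the lowest at 8.02. The part of single mice in the r of -0.93 was not tested. The 7 Ywhaz probe sets disagreed between altitudes, from -0.86 to 0.65, so no direction is given for the gene. Between low locations its adjusted p was 0.314 (limma).

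Other genes of the cascade were taken from lists by role, and 75 genes with a probe set of their own were analysed here. Each gene was read by its brightest probe set and tested for altitude with limma over all probe sets. One of the 75 was called, against 0.363% of 18193 genes: Nras, which encodes one of the Ras GTPases that activate Raf, rose at high altitude. The list was drawn up with results of these arrays known, although Nras was not among those results.

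Nras read 7.55, 8.35 and 8.38 in high A, 8.09, 8.14 and 8.33 in high B, and 7.58, 8.14 and 8.13 in high C. At low altitude it read 7.05, 7.32 and 7.46 in low A, 7.01, 7.59 and 7.39 in low B, and 7.30, 7.19 and 7.53 in low C. Each of the 9 high altitude mice exceeded the mean of the low altitude group, and the groups met only where the lowest mice of high A and high C reached the highest of low B. The means were 8.08 ± 0.31 against 7.32 ± 0.20 (SD, n = 9 each), a difference of 0.76 ± 0.12 (SE) or 1.70-fold, with an adjusted p of 0.00684 (limma). Its other probe sets had differences of 0.35 ± 0.12 and 0.20 ± 0.09 (SE), with adjusted p of 0.268 and 0.463, which did not pass. With 1 mean per location, 3 against 3, the adjusted p of Nras was 0.104.

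Of the immune cell markers, Jchain at 2.34 and Ighm at 2.05 were the 2 that passed the altitude test (limma), both higher at high altitude as Nras was. None of the 7 Kupffer cell and macrophage markers passed, and all 7 differences were positive (median 0.27), with a mean level from 8.26 to 9.84 at high and from 8.23 to 9.47 at low altitude. None of 6 T and NK cell markers passed and 5 were positive (median 0.46), with levels from 5.75 to 6.99 against 5.31 to 6.27. At an unadjusted p under 0.05 (limma) 4 of the 6 were higher and 0 lower, against 11.5% of all genes in either direction. Between high locations Ccl5 and Nkg7 passed limma's F test (adjusted p = 0.00971 and 0.0498), where 0.167% of all probe sets did. Of 5 B and plasma cell markers 3 were positive, with levels from 5.92 to 6.98 against 5.29 to 5.85, and Cd79a, Cd79b and Ms4a1 were below the median probe set level. None of 4 neutrophil markers passed and 3 were positive (median 0.08), with levels from 5.80 to 6.60 against 5.53 to 6.82. The part of these cells in the Nras difference was not tested.

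Among the receptors and adaptors, 0 of 13 genes were called, and 8 differences were positive, with a median of 0.03. Shc1, an adaptor that couples receptors to Ras, differed by -0.36 ± 0.10 (SE, adjusted p = 0.121), with each of the 9 high altitude mice under the low altitude mean, and by -0.36 on its second probe set. Grb2, its partner, differed by -0.26 ± 0.10 (SE, adjusted p = 0.339), and by 0.03 on its second probe set. The receptor gene Erbb3 differed by 0.26 ± 0.09 (SE, adjusted p = 0.269). Of the 9 Ras proteins and regulators, Nras was the 1 called and 5 differences were negative, with a median of -0.02. Rras differed by 0.21 and Rasgrp1 by -0.14 (adjusted p = 0.543 and 0.614). The other 3 Rasgrp1 probe sets were positive, from 0.05 to 0.23, so no direction is given for that gene.

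Of 12 Raf kinases, scaffolds and Raf regulators 0 were called and 7 differences were negative, with a median of -0.02. Araf, the other Raf kinase measured, differed by 0.07 on its brightest probe set, but its probe sets disagreed. Of its other 4, 1428607_at was called lower, at -0.38 ± 0.07 (SE, adjusted p = 0.0233), though it is a dim probe set with a mean level of 3.70, and the rest ran from -0.21 to 0.05. The 14-3-3 gene Ywhab differed by 0.15 (adjusted p = 0.391) on its brightest probe set and by -0.31 to -0.10 on its other 5. Shoc2, which helps activate Raf, differed by 0.14 (adjusted p = 0.595) and by -0.32 on its second probe set. No direction is given for these 3 genes. Of 9 genes for kinases and scaffolds around MEK and ERK 0 were called and 6 differences were positive, with a median of 0.12. The scaffold gene Iqgap1 differed by 0.58 ± 0.16 (SE, adjusted p = 0.139), but its other probe sets ran from -0.54 to 0.96. Pea15a, which holds ERK in the cytoplasm, differed by 0.20 (adjusted p = 0.387) and the stress kinase gene Mapk14 by 0.17 (adjusted p = 0.599).

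Of 12 ERK substrates and transcription factors 0 were called and 8 differences were positive, with a median of 0.14. Ets2 differed by 0.44 ± 0.14 (SE, adjusted p = 0.239), Elk4 by 0.25 (adjusted p = 0.444) and the kinase gene Mknk1 by 0.14 (adjusted p = 0.467), all by limma. Of 20 ERK-induced feedback and target genes 0 were called and 16 differences were positive, with a median of 0.10. The ERK-induced members Dusp6 and Spry4 were not in this list and differed by -0.63 and, on the brightest probe set, 0.13. The phosphatase gene Dusp2 differed by 0.30 ± 0.07 (SE, adjusted p = 0.0833), Fos by 0.42 ± 0.12 (SE, adjusted p = 0.18) and Myc by 0.30 ± 0.12 (SE, adjusted p = 0.337). Over all 75 genes 47 differences were positive, with a median of 0.07, against 9390 of 18193 genes and a median of 0.00. At an unadjusted p under 0.05 there were 13 higher and 3 lower among the 75, against 1155 higher and 934 lower, or 11.5%, of all genes. The 47 positive and 28 negative were also counted with arrays centred on their medians, centred on bright probe sets or quantile normalized again, while over all genes the positive ones numbered 8718, 9543 and 9347. Between locations 0 of the 75 passed at either altitude (limma). At an unadjusted p under 0.05 there were 7 of 75 between high and 3 of 75 between low locations, against 8.65% and 6.49% of all genes.

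**Figure D5:**
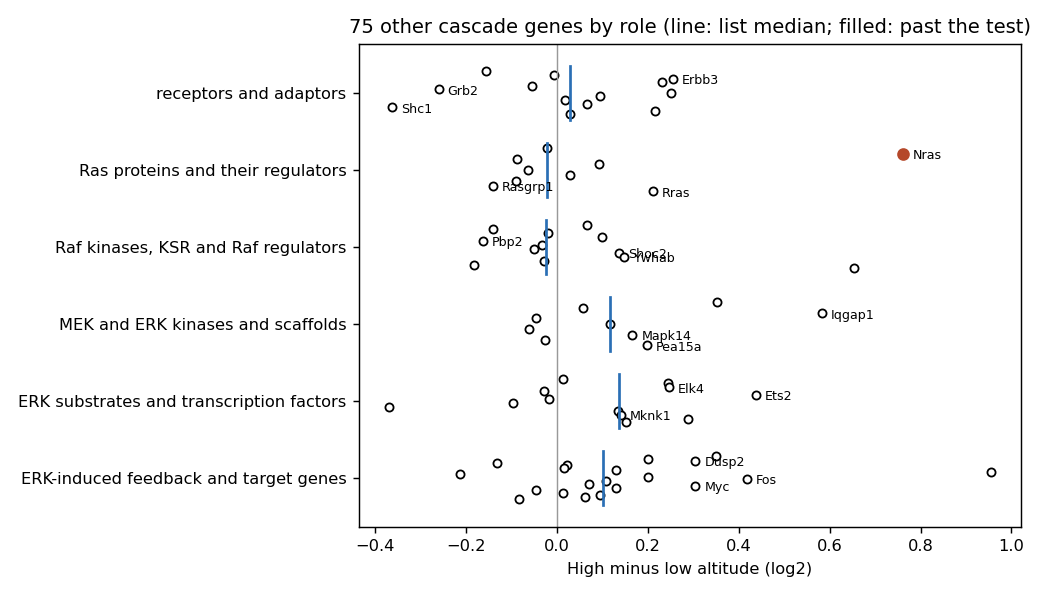
Difference of high minus low altitude (x axis, log2) of 75 other cascade genes in 6 lists by role (y axis), with 1 point per gene, a line at each list's median and names for the 3 genes with the smallest p in each list. The filled point is Nras at 0.76, and the ERK-induced genes centre on a median of 0.10.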

How the data were processed

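The authors deposited 1 table of log2 levels for 45101 probe sets on 18 arrays, made with RMA in the R package affy, per the submitters' processing notes, which name no version. RMA corrects background, quantile normalizes and summarises each probe set, which compresses dim probe sets towards a floor. The 64 Affymetrix controls were left out. Gene names came from GEO's platform annotation, and only probe sets with 1 gene were used.

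limma 3.58.1 in R 4.3.3 fitted altitude over 45037 probe sets, with trapping location as a random block (consensus correlation -0.00189), a mean-variance trend, and two-sided tests adjusted by Benjamini-Hochberg at 0.05. This nearly treats mice of 1 location as independent. Locations were compared by moderated F tests in a fit of 6 location means. Correlations within altitude used exact two-sided permutation of the 9 mice in Python 3.11.15. The procedure was tested on simulated data, in which mice were independent and locations had no spread beyond planted changes. This could not check the location block. Of planted altitude changes of 0.5 log2, 77.6% were recovered.

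A gene's brightest probe set represented it. Named were all member probe sets, cascade genes past the test and the 3 with the smallest altitude p per list, and the 5 most and 3 least similar genes; Araf, Ywhaz and further probe sets and Dusp6 look-alikes were chosen after values were seen. Members and lists were chosen with earlier results of these data known. Mouse numbers recur between locations, but mark different animals. No sequence or genome coordinate was used here.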

Additional observations from a re-analysis of the deposited data

Results flagged for a closer look

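Each of 37 probe sets named in the report was examined for a mouse standing apart from the other 8 of its altitude, by the gap to its nearest neighbour relative to the whole range. Of 74 such groups 4 had one, and chance gives about 1 in 20.

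On the Braf probe set 1447940_a_at, the low B mouse 1 read 6.14 while the other low altitude mice lay between 6.36 and 6.42. On 1447941_x_at, also of Braf, the high B mouse 1 read 4.63 against 4.88 to 5.09. On the dim Spry4 probe set 1422020_at, the low C mouse 1 read 4.46 against 3.89 to 4.08. Rasgrp1, a Ras activator, read 5.97 in the low A mouse 2 against 5.25 to 5.58 in the others. No mouse stood apart by this measure on either Pebp1 probe set, on Dusp6 or on Nras.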

How the results depend on the processing

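Over 71 recomputed values, the Pebp1 differences stayed between -1.08 and -0.83 for 1415950_a_at and between -0.80 and -0.62 for 1438649_x_at; the smallest sizes came without low location A. With 1 mean per location, 3 against 3, both lost their call by limma, as every other called probe set did. The altitude contrast chose the gene, so nothing is read from its calls. All 663 recomputed altitude differences of members moved by less than 1 SD between mice, but some near 0 changed sign. Among them were Braf 1435480_at, from -0.09 to 0.03, and Spry4 1445669_at, from -0.23 to 0.13. In 1022 recomputed location tests no member passed. Of 647 recomputed differences of the 18 named cascade genes, none changed sign and 1 lost its call, Nras at 0.76 with 1 mean per location, 3 against 3 (adjusted p = 0.104).

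The number of probe sets called by altitude, 134, was 0 with location means (limma, 3634 at an unadjusted p under 0.05), 64 with mouse number as a replicate block, 251 with weighted arrays, 205 with Actb integrity as a covariate and 66 with 1 probe set per gene. It was 82, 227, 78 and 39 without location high A, high B, low B and low C. Calls between high locations, 75, became 43 with arrays centred on their median, 314 with weights and 23 with the covariate. Calls between low locations, 28, became 13 with 1 probe set per gene and 107 with weights. Fewer samples or tests enter some of these, and otherwise the cause was not tested.

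Without single mice the counts ran from 49 to 163, from 31 to 113 and from 13 to 62. For altitude, low A2 (83), low B3 (49) and low C2 (79) moved it most. For high locations these were high A1 (40), B3 (31), C1 (46) and C3 (48), and low A1 (47), A2 (44), A3 (43) and B2 (113). For low locations they were low A2 (14), A3 (13), B2 (62), B3 (17) and C2 (43).

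The replicate block left the Pebp1 differences at -0.999 and -0.745. Same-numbered mice of different locations did not deviate together: correlations ran from -0.37 to 0.39 over 40 pairs, 9 above 0.1, and 3 of 17 mice were closest to their own number.

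The agreement of the Pebp1 probe sets ranged from 0.79 to 0.95 at high and from 0.81 to 0.94 at low altitude without single mice. At low altitude its adjusted exact permutation p was 0.0552 without low A2 or without low A3. With location means removed r was 0.86 and 0.81, neither past the threshold. Weak correlations of Pebp1 with other members changed sign. Map2k2 at low altitude went from 0.01 to -0.016 with bright centring and -0.18 with location means removed, Dusp6 at high altitude from 0.18 to -0.075 with location means removed, and Map2k1 at high altitude from 0.07 to -0.080 with the other Pebp1 probe set. Without single mice r ran from -0.13 to 0.22 for Map2k1, from -0.023 to 0.50 for Map2k2 and from -0.49 to 0.061 for Spry4 at high altitude. At low altitude it ran from -0.068 to 0.28 for Map2k1 and from -0.24 to 0.12 for Map2k2. Signal near the floor limits 8 of the 19 member probe sets, which were below the median level.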

Other observations

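Dusp6 varied more between mice than any other member, and the genes that varied with it were looked for by the rule used for Pebp1, after its values were seen. Among 12221 other genes, with altitude means removed, the most similar over 18 mice were Tango6 at r of 0.86, Spty2d1 at 0.82, Abhd17c, a depalmitoylating enzyme gene, at 0.81, Shc1 at 0.79 and the lysosomal sulfatase gene Galns at 0.79. Shc1, an adaptor upstream of Ras, was thus among the 5 genes most like Dusp6, with r of 0.58 at high and 0.91 at low altitude. Both had negative altitude differences, -0.63 for Dusp6 and -0.36 for Shc1. The most opposite were Mindy1 at -0.80, 4930564D02Rik at -0.79 and Odf2l at -0.79. These are extremes of many values and carry no test.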
